A study of Drosophila melanogaster with 6 samples.

Results

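The transcriptome described here is that of brain astrocytes of the fly Drosophila melanogaster in the third larval instar (L3), ranked by abundance. It comprised the 2 L3 libraries of a series of 6, chosen by their stage label, and the other 4 libraries were of adult astrocytes. Every fly of either stage carried UAS-mCD8::GFP, Alrm-Gal4 and UAS-RedStinger. Alrm-Gal4 is a driver named for the astrocyte gene alrm, and it switches on the UAS reporters, a green membrane protein and a red nuclear protein, in the cells where it is active. Flies were reared at 25 °C, and larval brains were digested with collagenase and dispase for 15 min at 29 °C, and adult brains for 30 min. Each library was made from a pool of 1000 cells sorted for red fluorescence, so the part of the brain from which a cell came is lost. PolyA RNA was converted into 3′ end libraries by a derivative of MARS-seq that copies barcoded cDNA with T7 RNA polymerase before sequencing. The labels do not say whether the 2 pools came from separate sets of larvae, so the spread between them may be technical. With 1 group of 2 libraries no test was possible, and the value in both libraries is given throughout.

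Astrocytes of the fly are glia with a branched form whose fine processes enter the synaptic neuropil. They clear glutamate and GABA from synapses through transporters and convert glutamate to glutamine. During metamorphosis they also take up neuronal debris and change shape as larval circuits are remodelled. The third instar is the last larval stage before this change, and the steroid hormone ecdysone sets its timing.

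The L3 libraries held summed counts of 2641671 and 1923097 over 16666 gene symbols, including counts that neighbouring symbols share. Levels are given as CPM, the count of a symbol scaled to its library's total, first in library 1 and then in library 2. Because a 3′ end library gives about the same number of reads to a short and a long transcript, CPM was not divided by length, and a level is a level of this measure and not of molecules. A floor of 3 counts corresponded to 1.14 CPM in library 1 and 1.56 CPM in library 2, and intervals cover counting error only. Of the 16666 symbols, 10740 (64.4%) had a count in both libraries, 947 only in library 1, 1248 only in library 2 and 3731 (22.4%) in neither. The median count of a symbol seen in 1 library was 4. The highest counts seen in 1 library were 215 for CG4250 in library 1 and 73 for CG14448 in library 2.

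The labelled cell type was checked against 11 astrocyte markers. All 11 had counts in both libraries, against 64.4% of all symbols. Of the 11, 10 had a mean of at least 10 CPM, against 7493 of all 16666 symbols. Detection did not set astrocytes apart from other glia. All 3 markers of ensheathing glia, 4 of cortex glia and 9 of surface glia also had counts in both libraries. All 3 ensheathing, all 4 cortex and 5 of the 9 surface glia markers had a mean of at least 10 CPM. The astrocyte leucine-rich repeat gene alrm, the gene after which the driver is named, stood at 861 and 1346 CPM. The glutamate transporter Eaat1 stood at 478 and 600 CPM. The GABA transporter Gat stood at 40.9 and 450 CPM, so the libraries lay far apart in a defining marker. The lipid phosphatase wun2 was nearly equal at 115 and 116 CPM, and CG1552 lay at 233 and 206 CPM. The N-acetyltransferase gene Dat was low at 17.0 and 33.3 CPM, and the metabotropic receptor gene GABA-B-R2 was close to the floor in library 1, at 1.51 and 8.32 CPM.

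The other 4 astrocyte markers were measured together with neighbouring genes. The odorant-binding protein gene Obp44a stood at 10529 and 9773 CPM, within 5% of the counts of coil, Pbp49 and Pabp2. The glutamine synthetase gene Gs2 stood at about the level of its neighbour Evi5, with 1827 and 2689 CPM in Evi5. The receptor gene Tre1 had the counts of the ribosomal protein gene RpL35, and ebony (e), which couples amines to beta-alanine, had those of Nelf-A, at 56.4 and 50.4 CPM. The markers present in the table thus included 7 with counts of their own and 4 whose counts could belong to another gene.

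Counts that neighbouring symbols share were a general property of these libraries. Symbols were said to share counts where they stood at most 10 rows apart in the deposited table, had at least 30 counts each over both libraries, and differed by less than 5% of their summed counts. Of 8499 symbols with at least 30 counts, 5462 (64.3%) shared counts with a neighbour, in 2247 groups. Most groups were small, with 1649 of 2 symbols, 371 of 3, 142 of 4, 48 of 5 and 37 larger. In 2181 of 4604 such pairs (47.4%) the counts were identical in both libraries. The share of near-identical pairs fell with distance, from 39.3% of symbols 1 row apart to 16.1% at 2 rows, 8.89% at 3 rows and 1.22% at 10 rows. From 11 to 100 rows apart it lay between 1.09% and 1.37%, as like counts also occur between symbols that are not close.

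**Figure D1:**
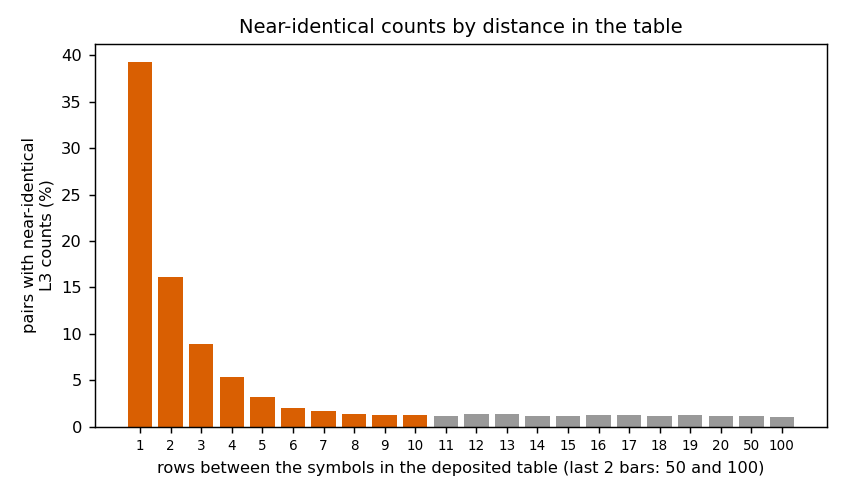
Percent of symbol pairs with near-identical L3 counts against the number of rows between them in the deposited table, among symbols with at least 30 counts. Orange bars are the distances at which symbols were joined into groups (up to 10 rows) and grey bars are larger distances. The bars fall from 39.3% at 1 row to 1.22% at 10 rows and stay between 1.09% and 1.37% beyond.

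The adult libraries, which the rule did not use, gave most of the same pairs. Of 4023 L3 pairs with enough adult counts, 3429 (85.2%) also differed by less than 5% there, against 83 of 2664 (3.12%) of the other adjacent pairs. Of 4531 pairs placed on a reference genome by name, 44.9% lay on opposite strands, against 67.2% of the other adjacent pairs. Of the same pairs 21.2% overlapped, against 22.3% of the other adjacent pairs. A gap of at most 1000 bases was found in 39.4% against 61.5%, one of up to 5000 bases in 21.5% against 11.3%, and a wider one in 17.7% against 4.84%. In 5 pairs the genes lay on different chromosomes. The L3 pairs lay up to 10 rows apart, with 2438 of 4604 at 1 row. The other adjacent pairs all lay 1 row apart, so the sets differ in row distance as well as in sharing. The part of row distance in the differences in adult counts, strand, overlap and gap was not tested. The counts alone do not tell which gene of a group gave rise to the reads. A partner is therefore named, or the sharing stated, where the level of a grouped gene is given, and a group or a symbol with its own counts is called a unit. Own counts means only that no symbol within 10 rows shared them, and a symbol farther away can still have near-identical counts.

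The 5 largest groups show what is joined. The largest held 12 symbols at 47.3 and 56.2 CPM, among them mir-6-1, mir-6-2, mir-6-3, mir-5, mir-4, mir-286, mir-3 and mir-309, the noncoding RNAs CR44214 and CR44504, and the coding genes CG11018 and hrg. The second held 9 symbols at up to 1667 and 1325 CPM, among them the ribosomal protein gene RpS2, 4 small nucleolar RNAs, the host RNA Uhg2, mtDNA-helicase and Bka. The third held 8 symbols at up to 38.6 and 47.8 CPM, among them Cyp9h1, antr and the aspartyl-tRNA synthetase Aats-asp. Next came groups of 7 symbols, of which 2 are named, with ade2, slmo and mir-966 in one and TpnC47D, Vhl, dare and sha in the next.

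A few genes carried much of the library. The 300 symbols of highest mean CPM, 2.79% of the symbols detected in both libraries, held 56.3% and 48.2% of the counts. The 10 highest held 6.40% and 6.30%, the 100 highest 28.9% and 24.6%, and the 1000 highest 75.5% and 70.2%. Ranked within each library, it took 236 symbols in library 1 and 319 in library 2 to reach 50% of the counts. Mean levels reached 1000 CPM in 271 symbols, 100 CPM in 1355, 10 CPM in 7493 and 1 CPM in 11556. The 300th symbol, the mitochondrial carrier Rim2, with the counts of Eno, had a mean of 863 CPM, and the 301st, the small heat shock protein Hsp27, joined with Hsp23, had 859 CPM.

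The top 300 symbols were only 127 units, since 254 of the symbols shared counts with a neighbour and 46 did not. Ribosomal protein genes made up 65 of the 300 symbols. A further 129 symbols stood there with the counts of a ribosomal protein gene, 59 of them noncoding RNAs and 70 coding genes, so that 194 of the 300 symbols belonged to a unit with a ribosomal protein gene. Counted by unit, 63 of the 127 held one. The library totals, and so CPM and the shares of symbols above, include the counts of every symbol in a group. Keeping 1 row per group left out 51.5% and 49.1% of the counts in library 1 and library 2. With each group as 1 row, 300 units reached down to a mean of 240.1 CPM and held 61.9% and 54.7% of the remaining counts.

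**Figure D2:**
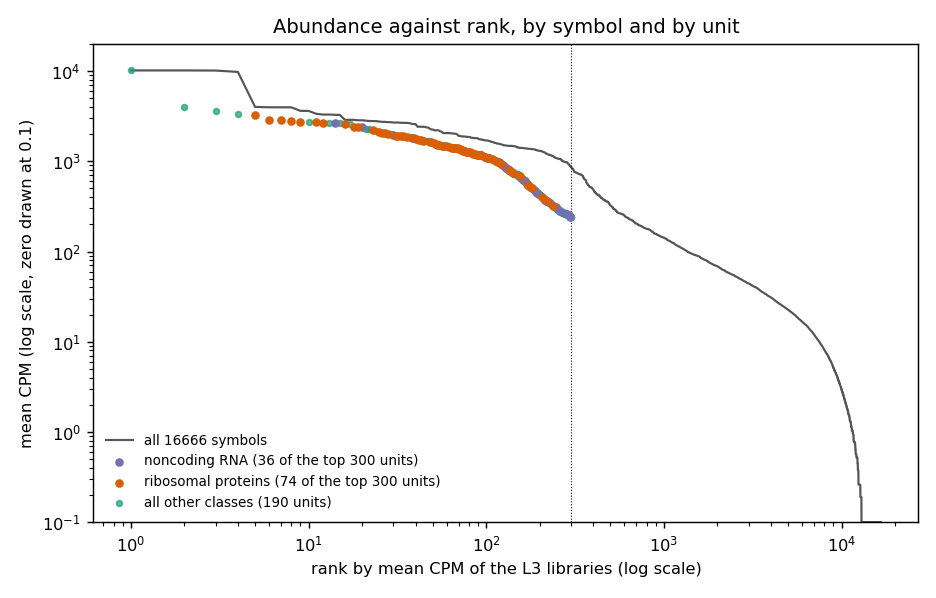
Mean CPM of the L3 libraries against rank, both on log scales. The grey line ranks all 16666 symbols, and the points rank units, in which neighbours that share counts are 1 row, for the top 300 units (orange, 74 with a ribosomal protein gene; purple, 36 noncoding RNAs; green, 190 of other classes). The dotted line marks rank 300, where symbols stand at 863 CPM and units at 240.1 CPM.

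Units at the very top mixed ribosomal, metabolic and glial genes. The group of Obp44a, Pabp2, coil and Pbp49 was first, at up to 10673 and 9773 CPM. Obp44a encodes a secreted binding protein, Pabp2 a nuclear poly(A) tail binding protein and coil the Cajal body protein coilin. This group stood well above all others in both libraries, since the second reached 3460 and 4557 CPM. The second held sinu, a claudin of septate junctions, Sucb, a subunit of succinyl-CoA ligase, Msr-110 and snmRNA:357. The third, Ef1alpha48D with MCPH1, reached 4163 and 3092 CPM, and Ef1alpha48D encodes the elongation factor that brings aminoacyl-tRNA to the ribosome. The fourth was bc10, a symbol with its own counts by the 5% rule, at 2749 and 3995 CPM. Its counts differed by 5.38% over the 6 libraries from those of sinu, 3 rows away.

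Genes of mitochondria and energy were among the next units, beside others. The stress-responsive transcription factor gene Xrp1 and the mitochondrial pyruvate carrier gene Mpc1 shared 2407 and 3029 CPM. The mitochondrial citrate carrier gene sea, with its own counts, stood at 2444 and 2909 CPM. Arginine kinase (Argk), which buffers ATP in insects, shared 2130 and 3200 CPM with CG5144. The Gs2 group followed at unit rank 22. The juvenile hormone receptor gene Met stood at 2834 and 1459 CPM with its own counts, higher in library 1.

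Ribosomal proteins, the structural proteins of the ribosome, held more of the top 300 units than any other named class. As units they held 26.0% and 19.3% of the counts left with 1 row per group, since a unit with a ribosomal protein gene was classed as ribosomal, against 6.75% and 6.09% for noncoding RNAs. As symbols they held 12.4% and 9.42% of all counts within the top 300, less than the 15.1% and 12.7% of noncoding RNA symbols. Of 87 symbols named as cytoplasmic ribosomal proteins, 83 had counts in both libraries, all 83 had a mean of at least 10 CPM and 81 of at least 100 CPM. Their median was 1324 CPM, against 7.14 CPM over all symbols. Among the first were RpL19, in a group with CG2765 and CG30424 at up to 3393 and 2378 CPM, and RpL17, at 3346 and 2356 CPM, with 2 small nucleolar RNAs. RpS23 with mir-308, RpS27 with bam, RpL8 and RpS26 were also among the first 26 units, as were RpL24, RpLP2, RpL18, RpL13A, RpL14 and RpL23A, each in a shared group. Of the 83 symbols, 71 (85.5%) shared counts with a neighbour, against 66.1% of all symbols with a mean of at least 10 CPM. The 12 that shared counts with no close neighbour included RpL8 at 3070 and 2144 CPM, RpS26 at 2633 and 1646 CPM and RpL13 at 2665 and 1393 CPM. RpL8 had nearly the counts of a distant symbol, Rabex-5.

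The symbols of the ribosomal class that were absent or low were mostly second copies of a gene. RpL37b and RpS10a had no count in either library, RpL10Aa had 1 count and RpS28a 4 counts, all in library 1. RpL37a was low at 13.6 and 21.8 CPM and RpS5b at 60.2 and 75.4 CPM, both with the counts of neighbours. Of the 83 members 4 were at least 4-fold higher in library 2, no larger a share than the 5.67% of all symbols. RpL15, with snoRNA:Me18S-C419, stood at 113 and 983 CPM, RpL10 at 99.9 and 545 CPM, RpL38 at 23.1 and 180 CPM and RpL41 at 81.0 and 385 CPM.

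Other genes of protein synthesis held 11 of the top 300 units, a class assigned by hand after the symbols were seen, as were 10 further classes below. Among the top 300 symbols these classes held fewer, with 6 in protein synthesis, 5 in chaperones and stress, 6 in energy metabolism and 4 in the cytoskeleton. Chromatin held 3, secreted and glial genes 2, transmitter, ubiquitin and transcription genes 1 each, and iron and lipid genes 0. No share over all symbols was counted for the hand classes. EF2, the translocation factor, was nearly equal in the libraries, at 1256 and 1250 CPM. The RNA helicase eIF-4a stood at 1116 and 1161 CPM, Tctp at 1208 and 938 CPM, and Ef1beta, an exchange factor for Ef1alpha48D, at 1133 and 869 CPM. The scaffold gene Rack1 shared counts with CG7115 and CR45008 at up to 1767 and 1239 CPM. The poly(A) binding protein gene pAbp, at 297 and 985 CPM, and eIF-5A, at 45.8 and 569 CPM with CR44814, were higher in library 2. Of 38 symbols named as translation factors 34 were detected in both libraries, and all 73 mitochondrial ribosomal proteins were, with a median of 25.7 CPM and a highest pair of values of 591 and 291 CPM in mRpL27.

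Chaperones and stress factors held 13 of the top 300 units, the highest of them the unit of Xrp1 and Mpc1 given above. The constitutive chaperone Hsc70-4 shared 1550 and 1373 CPM with Amt, and the Hsp90 gene Hsp83 shared 1288 and 862 CPM with CG14966. The small heat shock proteins Hsp23 and Hsp27 were joined by the 5% rule, at 874 and 1041 CPM in Hsp23 and 847 and 870 CPM in Hsp27. Of the endoplasmic reticulum, Hsc70-3 stood at 585 and 411 CPM with CkIIbeta, Calr at 871 and 628 CPM with CG9427 and CG8319, and Pdi at 360 and 229 CPM in a group of 4. The inducible genes Hsp70Aa and Hsp70Ab shared 198 and 156 CPM with CG3281, and DnaJ-1 shared 90.5 and 88.9 CPM with sif. In the stress list 23 of 24 members had a mean of at least 10 CPM, and 19 of these shared counts. The AP-1 subunit genes kay, at 181 and 295 CPM, and Jra, at 136 and 152 CPM, were also present, and Jra had the counts of RpLP0-like.

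Energy metabolism and mitochondria accounted for 18 of the top 300 units. Glycolytic genes were high and similar between libraries. Enolase (Eno) shared 840 and 889 CPM with Rim2, Gapdh2 had 660 and 722 CPM, PyK had 557 and 506 CPM, and Ald had 372 and 484 CPM. Of 17 members of the glycolysis and trehalose list, 16 were detected in both libraries (94.1%, against 64.4% of all symbols) and 9 had a mean of at least 100 CPM. The trehalase gene Treh stood at 142 and 277 CPM with Rbpn-5, and the lactate dehydrogenase gene ImpL3 at 60.2 and 86.8 CPM with CG10163. The ATP synthase subunit gene ATPsynC shared counts with Zwilch and CG15561, at 1050 and 1237 CPM in Zwilch, and the nucleoside diphosphate kinase gene awd stood at 868 and 1147 CPM in a group with CstF-50 and CG1896. The ADP/ATP carrier genes Ant2 and sesB shared 579 and 681 CPM.

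Genes for transmitter uptake, ion transport and junctions held 7 of the top 300 units. After the Gs2 group came Vha16-1, a subunit of the vacuolar proton pump, at 607 and 664 CPM in a group with CG33919, and Eaat1. The sodium pump beta subunit nrv2, a glial gene, had 364 and 337 CPM, the innexin Inx2, a gap junction protein, 212 and 342 CPM, and the carbonic anhydrase CAH1, 244 and 309 CPM. In the glutamate and GABA list all 11 members were detected in both libraries, against 64.4% of all symbols. Glutamate dehydrogenase (Gdh) stood at 159 and 154 CPM and the aminotransferase Got1 at 98.4 and 97.8 CPM. The second glutamate transporter, Eaat2, was low, at 6.44 and 30.7 CPM, and so were VGlut, at 4.54 and 1.04 CPM, and Gad1, at 2.65 and 0.520 CPM, the vesicular glutamate transporter and GABA synthesis genes of neurons. Of the 8 innexins, ogre, at 181 and 202 CPM with CG3040, was next after Inx2, Inx3 stood at 27.6 and 9.36 CPM, and Inx7 had no count.

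Secreted, adhesion and glial identity genes held 10 of the top 300 units. Beside Obp44a and alrm these included ImpE1, an ecdysone-inducible gene, at 582 and 865 CPM, and the adhesion protein gene Ama at 686 and 719 CPM. The FGF receptor adaptor gene stumps was nearly equal at 255 and 258 CPM. The glial gene bnb stood at 246 and 278 CPM in a pair with CG6961. Transcription regulators held 7 units, led by bun at 839 and 1236 CPM with CG5418, Smr at 499 and 931 CPM and the POU factor gene vvl at 235 and 394 CPM. The gene repo, for the homeodomain factor of glia, stood at 225 and 228 CPM, at rank 645 among symbols, and shared its counts with CG7156.

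The cytoskeleton held 10 of the top 300 units. The tubulin gene alphaTub84B had 2558 and 1472 CPM with its own counts, and betaTub56D shared 1635 and 1149 CPM with RpL11. In the actin list, 30 of 30 members were detected in both libraries and 27 had a mean of at least 10 CPM. Profilin (chic), which feeds actin monomers to growing filaments, had 1103 and 1750 CPM in a group with psd, CG13992 and CR43465. The cofilin gene tsr had 298 and 456 CPM with Not11 and IntS1, Act5C 233 and 484 CPM, the membrane linker Moe 332 and 349 CPM and Act42A 258 and 182 CPM. The small GTPase genes Rho1, at 172 and 196 CPM with Ric, Cdc42, at 162 and 174 CPM in a group of 4, and Rac1, at 125 and 149 CPM, followed, and the first 2 shared counts with neighbours.

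Chromatin and RNA processing genes held 16 units, among them Df31 at 1378 and 1060 CPM, the replacement histone gene His3.3B with fh at 1103 and 955 CPM in His3.3B, and Bap111 at 773 and 751 CPM. Iron and redox genes held 8, led by Cyp28d2 at 937 and 716 CPM with snmRNA:158, its neighbour Cyp28d1 at 723 and 558 CPM and the ferritin light chain gene Fer2LCH at 726 and 514 CPM. The ferritin heavy chain gene Fer1HCH had 402 and 436 CPM, and the metallothionein gene MtnA had 256 and 115 CPM. The ubiquitin genes and their partners held 3 units, and lipid synthesis held 2, with the fatty acid synthase FASN1 in a group with toc at up to 386 and 573 CPM and the desaturase Desat1 at 338 and 259 CPM. The remaining 85 units were of other or uncharacterized genes.

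Noncoding RNAs supplied 85 of the top 300 symbols but 36 of the top 300 units. Their highest symbols stood in groups with coding genes, such as mir-308 with RpS23 at 3137 and 2343 CPM. Among those with no shared counts were mir-280 at 3240 and 2102 CPM, 18SrRNA:CR45838 at 2083 and 2668 CPM, CR45481 at 2189 and 1743 CPM and CR41620 at 1301 and 1665 CPM. Of 303 small nucleolar RNAs 230 (75.9%) had counts in both libraries, and of the 154 with a mean of at least 10 CPM 120 (77.9%) shared counts with a neighbour. Of 238 microRNA symbols 139 (58.4%) had counts in both libraries, and 51 of the 73 at 10 CPM or more (69.9%) shared counts. Over all symbols 64.4% had counts in both libraries, and 66.1% of those at 10 CPM or more shared counts, so the microRNA symbols lay near both shares. A 3′ end library of polyA RNA does not measure mature microRNAs, so these values are counts assigned to microRNA loci. The values of small nucleolar and ribosomal RNA symbols are likewise counts assigned to their loci, and not levels of the mature RNA.

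Near-identical counts also joined symbols far apart in the table. Of the 46 top 300 symbols with no close partner, 25 had another symbol within 5% over the 6 libraries, and all 25 partners stood more than 10 rows away. For 13 the difference was under 1%, with the partner 196 to 2094 rows away and on the same chromosome in every case. The ribosomal protein gene RpL8 matched Rabex-5 with a difference of 0.315%, Atu matched RpL3 with 0.138%, and mir-280 matched RpLP2 with 0.587%. The elongation factor gene Ef1beta matched the cuticle protein gene Lcp3 with 0.236%, and the chaperone gene Hsp83 was matched by CG33791 with 0.486%. The helicase gene eIF-4a matched CG3558 with 0.872%. A match of this kind says that the counts are alike, and whether the symbols share reads was not tested.

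Signalling lists were described by level and count. In the ecdysone response list 21 of 25 members were detected in both libraries and 16 had a mean of at least 10 CPM. The receptor genes EcR, at 47.3 and 88.4 CPM, and usp, at 42.4 and 60.8 CPM with mir-4954, were present, and the target genes ImpE1, Eip75B, at 231 and 307 CPM with CR45393, and Blimp-1, at 104 and 356 CPM, were higher. The late gene Eip93F had no count in library 1 and 13 in library 2. The timing factors Imp, at 215 and 262 CPM with CR45204, and Syp, at 10.2 and 140 CPM, differed in how far the libraries lay apart.

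In the FGF and EGF list 13 of 15 members were detected in both libraries. The adaptor stumps, the feedback inhibitor sty, at 148 and 281 CPM, and the effector pnt, at 134 and 253 CPM in a group of 3, led it. The FGF receptor htl, which controls astrocyte infiltration in the larva, stood at 31.4 and 28.6 CPM with DNaseII, and its ligands were lower, with pyr at 6.81 and 4.68 CPM and ths at 0 and 0.520 CPM. The tracheal FGF receptor btl had no count. In the Notch list 15 of 17 were detected in both, led by E(spl)mbeta-HLH at 143 and 64.5 CPM with CR45038, mam at 23.8 and 64.5 CPM with Prosap, and E(spl)m3-HLH at 51.9 and 34.3 CPM with E(spl)m4-BFM. The receptor gene N stood at 30.7 and 46.8 CPM with CG18508, and its ligand gene Dl had 7 counts in library 1 and 0 in library 2.

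All 8 engulfment genes were detected in both libraries and had a mean of at least 10 CPM. The engulfment receptor gene drpr, in a pair with CG7991, stood at 105 and 111 CPM, its adaptor ced-6 at 82.1 and 46.8 CPM, and the Rac activator mbc at 90.5 and 126 CPM. The highest, prtp, at 562 and 1219 CPM, encodes a Drpr ligand of the endoplasmic reticulum and shared counts with Tango10. In the cell cycle list 23 of 24 were detected in both, but 2 had a mean of at least 100 CPM, PCNA at 105 and 111 CPM and Cdk1 at 114 and 96.7 CPM, each with a neighbour's counts. CycE stood at 61.7 and 26.0 CPM, CycB at 48.1 and 34.3 CPM and CycA at 29.5 and 29.1 CPM. In the lipid handling list 13 of 14 were detected in both, and 8 (57.1%) had a mean of at least 10 CPM. The apolipoprotein gene GLaz shared 53.8 and 82.2 CPM with CG15870.

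Antimicrobial peptide genes, the outputs of innate immune signalling, were mostly absent. Of 14, 9 (64.3%) had no count in either library, against 22.4% of all symbols, which allows up to 0.657 CPM each over both libraries. Among the 9 were Dpt, AttA, AttC, Dro, Mtk and 4 cecropins. AttB was the exception, at 58.7 and 60.3 CPM, and Drs had 6.81 and 20.8 CPM. Of the 8 Hox genes pb had no count and Scr was highest, at 40.5 and 22.4 CPM.

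As sums and medians, markers of other glia stood below those of astrocytes, but single markers overlapped. The summed level of the 11 astrocyte markers was 15280 and 16118 CPM, against 57.9 and 135 CPM for 3 markers of ensheathing glia, 210 and 316 CPM for 4 of cortex glia and 276 and 252 CPM for 9 of surface glia. Most of the astrocyte sum is the Obp44a group, and Gs2, Tre1 and e also had counts that could belong to another gene. The median of the mean levels was 245 CPM for astrocyte markers, against 23.8, 23.4 and 16.2 CPM for ensheathing, cortex and surface glia. The P450 gene Cyp4g15 led cortex glia at 164 and 241 CPM, CG9657 led ensheathing glia at 38.2 and 70.2 CPM, and CG4797 led surface glia at 71.2 and 89.4 CPM in a shared group.

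Neuronal markers summed to 249 and 381 CPM over 21 symbols, of which 16 were detected in both libraries and futsch in neither. Syx1A, at 68.5 and 82.2 CPM, Tdc2, at 65.1 and 71.2 CPM in a shared group, and the RNA-binding gene elav, at 59.8 and 70.7 CPM, were the highest. Of the 21, 16 were higher in library 2 and 4 in library 1. The active zone gene brp had 5.68 and 32.8 CPM, the vesicle gene nSyb 1.89 and 13.5 CPM and Snap25 0.379 and 13.5 CPM, while VGlut, Gad1, Ddc and cpx were higher in library 1. ChAT and VAChT had no count in library 1 and 5 and 4 counts in library 2.

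Neuroblast and progenitor markers summed to 437 and 605 CPM over 13 symbols, with Imp and Syp forming most of it. Of the 13, 6 were higher in library 2 and 7 in library 1. The transcription factor genes wor, with 18 counts, and ase, with 10 counts, were seen in library 1 alone, mira stood at 22.7 and 7.80 CPM, and E(spl)mgamma-HLH at 67.4 and 14.6 CPM. The neuroblast gene dpn was nearly equal, at 11.4 and 9.36 CPM in a pair, and insc, at 45 and 65 CPM with sktl, and pros, at 40.5 and 94.6 CPM, were higher in library 2. The other astrocyte values set out above were taken from these same libraries, and the part of neuronal or progenitor RNA in any of them was not tested.

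Markers of hemocytes, fat body and muscle left few counts. Of 10 hemocyte markers 8 had a mean under 10 CPM, with Hml at 40.1 and 24.4 CPM, crq at 35.2 and 29.1 CPM in a pair with ex, and srp and PPO1 at 0. In the fat body list Lsp1beta, at 17.8 and 33.3 CPM, was the one member at 10 CPM or more, and in the muscle list it was Mef2, at 29.5 and 41.1 CPM. In the photoreceptor list inaD appeared at 1371 and 793 CPM, the counts of its neighbour RpL23, and the next was trpl at 25.0 and 39.5 CPM, while trp and Arr1 had no count. In the tracheal list vvl, which is not limited to trachea, led, and btl had no count. In the imaginal disc list 4 of 9 members (44.4%) reached that mean, led by sd, at 62.8 and 81.6 CPM with the counts of Chc.

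**Figure D3:**
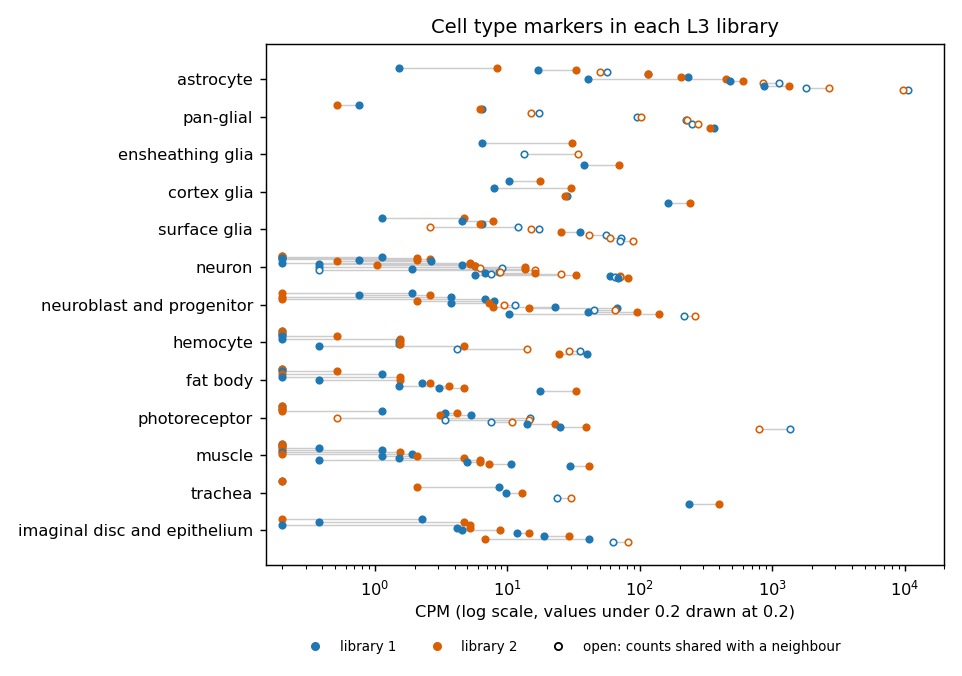
CPM (log scale, values under 0.2 drawn at 0.2) of each marker gene in L3 library 1 (blue) and library 2 (orange), 1 row of points per gene, joined by a grey line, for 13 lists of cell type markers. Open points share counts with a neighbour. The astrocyte list reaches 10529 CPM in Obp44a, most hemocyte, fat body and muscle markers lie near the floor, and the open photoreceptor point at 1371 and 793 CPM is inaD.

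Families of chemosensory genes were detected in part. Of 60 odorant receptors 22 had counts in both libraries and 29 in neither, of 58 gustatory receptors 23 and 24, of 60 ionotropic receptors 21 and 34, and of 50 odorant-binding proteins 19 and 28. Over all symbols these shares were 64.4% and 22.4%. The highest of most of these families stood with another gene. Gr63a, at 783 and 1174 CPM, had the counts of the ubiquitin gene Ubi-p63E. Ir93a, at 1345 and 987 CPM, had those of RpS30, and Or85a, at 138 and 191 CPM, those of CG7443. Of the members at a mean of 10 CPM or more, 9 of 13 odorant receptors, 13 of 16 gustatory receptors, 8 of 9 odorant-binding proteins and 3 of 9 ionotropic receptors shared counts, against 4955 of 7493 symbols (66.1%) in all, so the families lay on both sides of the overall share. Or85f, at 415 and 480 CPM, shared none with a near neighbour.

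Other families of differentiated tissues were sparse. Over all symbols, 64.4% had counts in both libraries and 22.4% in neither. Of 121 cuticle proteins 34 (28.1%) had counts in both libraries and 58 (47.9%) in neither. The highest of them, Lcp3 and Lcp4, shared 1129 and 865 CPM. Osi5, at 338 and 258 CPM, was the highest of 24 Osiris proteins, and it had almost the counts of Desat1, a likeness that was noticed after the values were seen. Of 44 seminal fluid proteins 15, of 27 Jonah and trypsin proteases 9, of 20 testis Mst genes 9 and of 7 opsins 2 had counts in both libraries. Neuronal recognition proteins were low in level. Of 13 beat proteins 2 were detected in both libraries and none had a mean of 10 CPM, and of 21 dpr proteins 14 were detected in both and 5 reached that mean. Histones, which are not a family of a differentiated tissue, were also detected in part. Of 31 histone symbols 9 were detected in both, and the 4 highest, His3.3B, His2Av, His4r and His3.3A, each had a neighbour's counts. The libraries were made from polyA RNA, so these counts cannot tell whether histone transcripts without a poly(A) tail were present.

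Housekeeping families were detected more fully than the 64.4% of all symbols. Counts in both libraries were found for 40 of 47 proteasome subunits, 28 of 33 subunits of the vacuolar proton pump, 49 of 60 of the respiratory chain, 11 of 15 of the ATP synthase, 26 of 28 Rab GTPases and 9 of 10 tubulins. Rab11, which directs recycling endosomes, led the Rab genes with counts of their own, at 231 and 217 CPM, and Rab27 stood at 1860 and 1714 CPM with the counts of the ribosomal protein gene sta. Among enzymes of detoxification 27 of 35 glutathione transferases and 47 of 82 P450 enzymes had counts in both libraries. GstD1, GstD9 and GstD10 shared counts, at 243 and 287 CPM in GstD1.

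**Figure D4:**
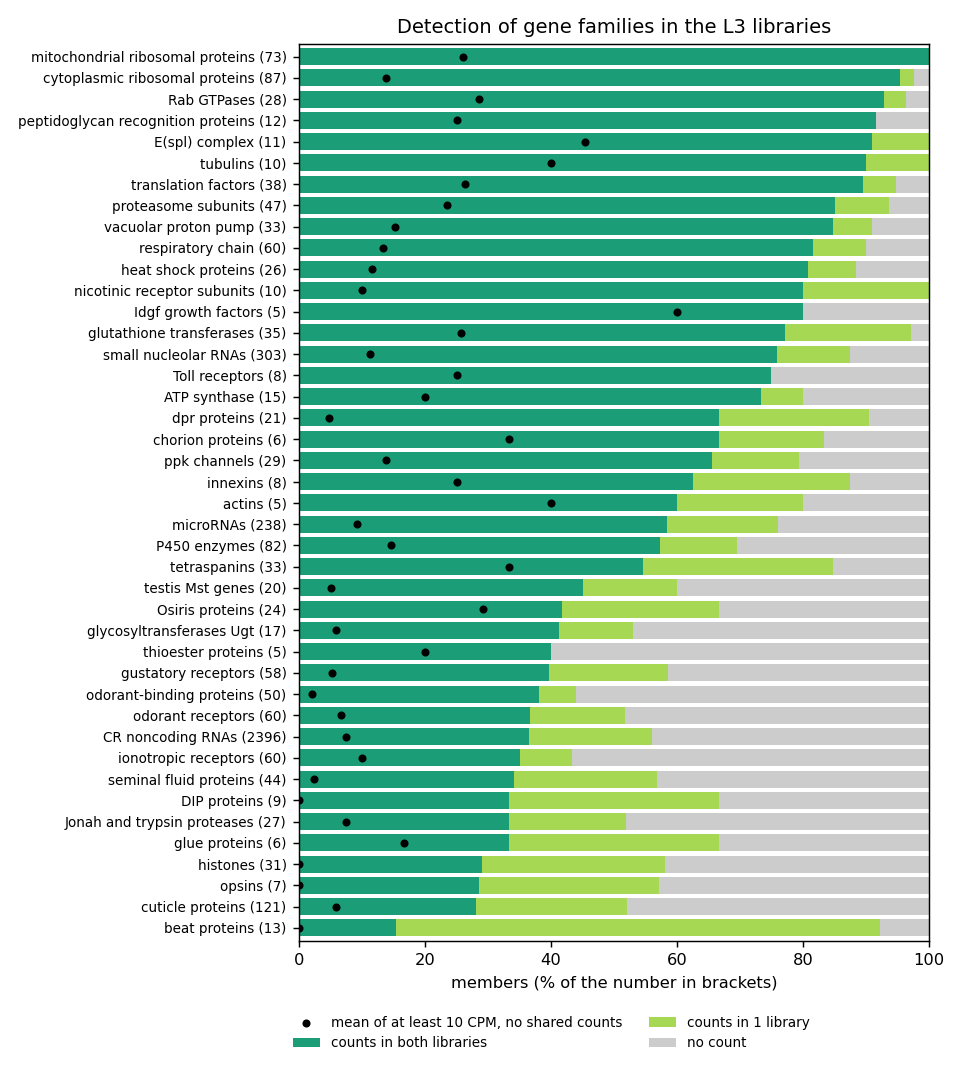
Percent of the members of each gene family of at least 5 members with counts in both L3 libraries (dark green), in 1 library (light green) or in neither (grey), with the number of members in brackets. Black points give the percent that had a mean of at least 10 CPM and shared counts with no symbol within 10 rows. Mitochondrial ribosomal proteins were detected in 73 of 73 and beat proteins in 2 of 13.

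Over 12935 symbols with a count in either library, Pearson's r of log2(CPM + 1) was 0.882 and Spearman's rho was 0.873, across genes, which are not independent replicates. The 300 highest symbols of each library had 272 in common, the 100 highest 77 and the 10 highest 4. With each group as 1 row, the 300 highest units had 255 in common, the 100 highest 79 and the 10 highest 4. Of 7493 symbols with a mean of at least 10 CPM, 56.1% lay within 1.5-fold and 77.1% within 2-fold, and the median coefficient of variation between the libraries was 24.8%. The share at least 4-fold apart was 10.3% at 10 to 30 CPM, 3.24% at 30 to 100 CPM, 3.70% at 100 to 300 CPM, 2.43% at 300 to 1000 CPM and 0% above that.

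The difference was uneven in direction. Library 2 was at least 4-fold higher in 425 of 7493 symbols (5.67%), and library 1 in 51 (0.681%). The median log2 ratio of library 2 to library 1 was 0.22 with CPM. Scaling by TMM or by the upper quartile lowered every ratio by 0.24 or 0.28, and gave 308 against 93 and 286 against 111 symbols. Library 2 thus held 89.3% of the calls with CPM, 76.8% with TMM and 72.0% with the upper quartile. When symbols that share counts with a neighbour were left out, 222 and 23 of 2538 remained on either side.

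The 10 largest ratios toward library 2, among units of at least 50 CPM there, began with genes near the floor in library 1. CG42541 had 1.51 and 123 CPM, a ratio of 81.0 with a 95% interval from 31.2 to 300. The cadherin gene CadN and CR45699 shared 1 count in library 1 and 113 in library 2, a ratio of 155 with an interval from 27.3 to 6185. CR45102 had 2.65 and 102 CPM, the receptor kinase gene Ror 3.41 and 76.4 CPM, Pur-alpha 3.03 and 60.8 CPM and the DNA repair gene Fancd2 6.81 and 112 CPM. Each of these had at most 18 counts in library 1 and at least 113 in library 2.

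The rest of the 10 had more counts in library 1 or a partner with the same counts. The protein kinase A subunit gene Pka-C1 had 15.5 and 251 CPM, a ratio of 16.2 (11.8 to 22.8), and Syp had a ratio of 13.7 (9.20 to 21.2). The translation factor gene eIF-5A, with CR44814, had a ratio of 12.4 (10.3 to 15.1). The brain tumour gene brat and CG17568 shared counts at 4.54 and 58.2 CPM in CG17568. Gat, the GABA transporter and an astrocyte marker, had a ratio of 11 (9.0 to 13.6), and RpL15, named here after its values were seen, one of 8.72 (7.71 to 9.88). For every ratio given here the counting interval lay above 4.

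Fewer genes were far higher in library 1. CG4250 had 81.4 CPM there and no count in library 2. With the floor of 3 counts in place of 0 it was 52.2-fold higher, and the exact counting interval began at 42.1-fold. The SoxB factor gene SoxN had 84.8 and 4.16 CPM, 20.4-fold higher in library 1 (10.2 to 47.8). The Notch target gene E(spl)m2-BFM, in a group with CR43643 and CR43644, had 79.5 and 4.16 CPM, 19.1-fold higher (9.52 to 44.8), and E(spl)mgamma-HLH was 4.63-fold higher (3.10 to 7.16). The group of pncr002:3R was 6.12-fold higher (3.69 to 10.8) and that of CG32036 and path 5.21-fold higher (4.16 to 6.59), while CG44174 was 4.02-fold higher (2.65 to 6.30). CG9095 followed with 3.35-fold (2.50 to 4.56), Desat2 with 3.08-fold (2.17 to 4.46) and Mtch with 3.02-fold (2.06 to 4.53). Several of these intervals reached below 4.

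**Figure D5:**
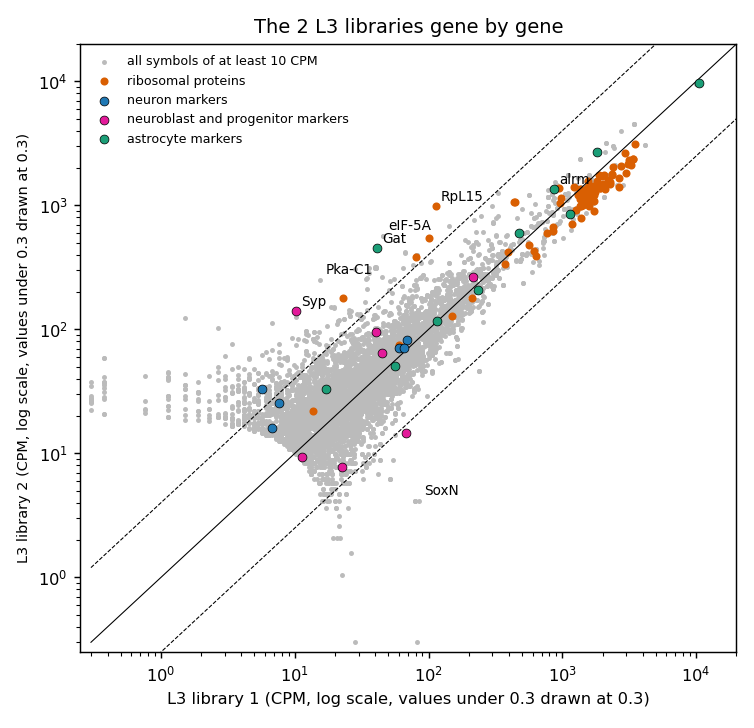
CPM in L3 library 2 against library 1, both on log scales with values under 0.3 drawn at 0.3, for 7493 symbols with a mean of at least 10 CPM (grey) and for ribosomal proteins, neuron markers, neuroblast and progenitor markers and astrocyte markers of that level (colours). The solid line marks equality and the dashed lines a 4-fold difference. Ribosomal proteins lie mostly below the solid line, while Gat, Syp, Pka-C1, eIF-5A and RpL15 lie above the upper dashed line and SoxN below the lower.

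The median log2 ratio of library 2 to library 1 was -0.39 over 83 ribosomal proteins, -0.69 over 12 Notch list members and -0.83 over 9 members of the E(spl) complex, which overlaps the Notch list, and it was 0.75 over 6 neuronal markers and 0.75 over 16 ecdysone response members, against 0.22 over all 7493 symbols. Higher medians were 2.10 over 7 seminal fluid proteins, 5 of which were at least 4-fold higher in library 2 and belonged to 1 shared group, and 1.37 over 3 markers of ensheathing glia. The other scalings move every list by the same amount and leave the distance to the overall median as it is. Over 10 astrocyte markers, close to the overall median, it was 0.17, or -0.07 with TMM and -0.11 with the upper quartile. Library 2 was at least 4-fold higher in 4 of the 83 ribosomal proteins, 1 of the 10 astrocyte markers, 1 of the 6 neuronal markers and 1 of the 16 ecdysone members, against 5.67% of all symbols. Library 1 was so in 2 of the 9 E(spl) members, against 0.681% of all.

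Gene span, the stretch of the reference genome from a gene's start to its end, was set beside the difference. The median span was 4828 bases in the 364 of these 425 symbols with a coding length in the reference, 2302 bases in 45 of the 51 that were far higher in library 1, and 2578 bases in 6700 of all tested symbols. Library 2 was at least 4-fold higher in 5.17% of 831 genes spanning under 1000 bases, in 3.01% of 1793 genes spanning 1000 to 2000 bases, in 6.91% of 1419 spanning 5000 to 20000 bases and in 20.7% of 140 spanning at least 50000 bases. Across the 6700 genes Spearman's rho between span and the log2 ratio was 0.14, and it was 0.16 over the 2263 that shared counts with no neighbour. These genes come from the same 2 libraries, so the relation describes this pair, and the part of gene span in the difference was not tested.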

How the data were processed

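RNA was measured in 6 libraries of sorted astrocytes, and the 2 L3 libraries are described here. The authors deposited 1 table of raw whole-number counts per gene symbol and library, not normalized and not pooled. The submitters' processing notes name HOMER, HISAT 0.1.5 and bcl2fastq without roles. Genome build, annotation, strand use and any collapsing of molecular identifiers are items not given in the sources used here. No sample column was left unmapped.

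CPM was computed in Python 3.11.15 with pandas 2.3.3, and ratios have exact (Clopper-Pearson) 95% intervals from scipy 1.17.1. A zero was replaced by 3 counts. TMM and upper quartile factors came from edgeR 4.0.16 in R 4.3.3, and no test was run. Names, neighbours, strand and gene span came from RefSeq (Release 6 plus ISO1 MT) and Ensembl release 115, in which 12618 symbols were current and 3896 synonyms, and 152 had no match. The reference may differ from the authors' build, so no coordinates are given. The scripts for shared counts and ratios were tested on simulated data.

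The libraries, the lists and the classes were chosen with earlier results of these data known. Genes are named if they are among the 25 most abundant units, the 3 highest of a class or list, the 10 largest ratios in each direction among symbols of at least 50 CPM, the markers of astrocytes or the highest of another marker list, or the 5 largest or most abundant groups. Other genes are examples chosen after their values were seen, and a gene that meets the rule is not reported here. Classes of the top units were given by hand after the symbols were seen, 11 of 14 in all, and a unit was classed as ribosomal if it held such a gene and otherwise by its first member with a class. Alternatives covered count minima, thinning, pseudocounts, scaling, folds, coding length, the rule for shared counts and each library alone.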

Additional observations from a re-analysis of the deposited data

How the results depend on the processing

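No paired analysis was possible because the report compares no groups and 1 group of 2 libraries gives no test. The symbols detected numbered 10740 in both libraries, 11687 to 11988 in 1 library alone, 9896 and 8236 with minima of 3 and 10 counts, and 10634 with library 1 thinned. The mean share of counts in the top 300 symbols, 52.3%, was 48.5% to 56.5% in 1 library alone, 58.3% with 1 row per group, 26.8% for the top 100 and 72.9% for the top 1000. Ribosomal proteins numbered 65 in the top 300, 65 to 67 in 1 library alone, and 76 when CPM was divided by coding length, which 215 of the top 300 symbols have, under 80%, so that ranking is void. The correlation of 0.882 was 0.855 with a pseudocount of 0.5, 0.923 with 5, 0.861 from 10 CPM and 0.855 with 1 row per group, and the cause was not tested.

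The 425 symbols that were 4-fold higher in library 2 numbered 952 with a minimum of 3 CPM, 70 with 50 CPM, 1362 at 2-fold, 136 at 8-fold and 222 among symbols with no shared counts, a choice made after seeing the data. For library 1 the 51 were 93 with TMM, 111 with the upper quartile, 238 with 3 CPM, 3 with 50 CPM, 355 at 2-fold, 15 at 8-fold and 23 with no shared counts. The folds, the minima and the fewer symbols change these counts by construction. Symbols in shared groups fell from 5462 to 3543 with a minimum of 100 counts, which leaves fewer symbols to compare, and lay between 4405 and 6221 under the other rules. Family members detected fell from 1982 of 4171 to 1069 at 10 CPM. Of 106 values of single classes and families, 55 stayed within the limits set and 51 moved. Class values stayed in 41 of 64 cases and family values in 14 of 42, so most family counts depend on the minimum for detection. Depth limits a symbol with no count in either library to 0.657 CPM.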
